A study of Mus musculus with 4 samples.

Results

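This report describes 10 genes of the major histocompatibility complex (MHC) class II presentation pathway, a fixed list of names among the 34866 genes of the deposited table, in lymphoma B cells of λ-MYC mice. The mice carried the λ-MYC transgene, a human MYC gene under Igλ regulatory sequences, together with AicdaCre and R26tdTom alleles (λ-MYC Tom+/ki), so that Tomato (Tom) marks cells that have expressed activation-induced deaminase (AID) at some time, and their descendants. B220+ IgM+ splenocytes of 2 mice, each with an IgM+ Tom+ tumor (tumors #1 and #2), were separated by Tomato, and 1 Tom+ and 1 Tom- library per mouse (4 libraries) were sequenced. All 4 libraries share the transgene and both reporter alleles, no library comes from a mouse without the transgene, each tumor is 1 mouse, and the strain and the ages of these mice were not given in the sources used here. Values are transcripts per 1000000 (TPM), a measure per transcript length, so that levels of different genes can be compared within a library. Because TPM keeps no record of read numbers, depth could not be read from the values and counting error has no interval here.

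MHC class II molecules present peptides from endocytosed proteins to CD4+ T cells, and B cells are among the few cell types that make them constitutively. The α and β chains (H2-Aa with H2-Ab1 for I-A, and H2-Eb1 for the β chain of I-E) assemble with the invariant chain, encoded by Cd74, which blocks the peptide groove until proteases trim it in endosomes. H2-DM (H2-DMa with H2-DMb1 or H2-DMb2) then exchanges the remaining fragment for antigenic peptides, H2-O (H2-Oa with H2-Ob) inhibits H2-DM and is known mainly from B cells, and Ciita encodes the coactivator that switches the family on. The 8 genes named H2 lie within the class II region of chromosome 17 (GRCm38), from H2-Oa, which starts at 34092340, to H2-Eb1, which ends at 34316674. Ciita lies on chromosome 16 (10480059 to 10528418).

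The genes of this family share a promoter module, the X box bound by RFX factors and the Y box bound by NF-Y, on which CIITA assembles. RefSeq promoters on GRCm38.p6 were at hand for 7 of the 10 genes, and the 250 bases before the start were searched on both strands for ACNNATG, the end of the X box, followed by ATTGG, the core of the Y box, with 5 to 40 bases between them. The pair of motifs was found in 4 of the 7 genes (H2-Eb1, H2-Ob, H2-DMb1 and H2-DMb2), against 1.07% of the 27025 genes of the promoter table, and the Y box core alone, on either strand, in all 7, against 37.5%. The windows below are shown because H2-Eb1, H2-DMb2 and H2-Ob carry the same pair of motifs. Between the tumors, as given further on, H2-Eb1 was lower in tumor #2, while H2-DMb2 and H2-Ob were higher. H2-Aa is shown because it has the Y box core without a match to the X box letters. Capitals mark the motif matches, and each window is written from 5′ to 3′ on the strand of its gene. They lie at chr17:34305763-34305815 (H2-Eb1, plus strand), chr17:34145114-34145166 (H2-DMb2, plus strand), chr17:34238803-34238855 (H2-Ob, plus strand) and chr17:34287864-34287916 (H2-Aa, minus strand).
H2-Eb1: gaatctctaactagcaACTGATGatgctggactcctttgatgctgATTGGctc
H2-DMb2: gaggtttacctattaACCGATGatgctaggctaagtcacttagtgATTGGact
H2-Ob: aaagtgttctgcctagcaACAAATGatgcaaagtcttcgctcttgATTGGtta
H2-Aa: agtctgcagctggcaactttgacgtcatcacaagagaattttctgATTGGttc
The X box match began at position -88 from the start of H2-Eb1, at -120 of H2-DMb2, at -91 of H2-DMb1 and at -84 of H2-Ob, and between 20 and 23 bases separated it from the Y box core. A match is a run of letters and does not show that a factor was bound in these cells.

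Cd74 had the highest level of the 10 genes, with 660 TPM (Tom-) against 476 TPM (Tom+) in tumor #1 and 831 against 700 TPM in tumor #2. Its mean of 667 ± 147 TPM (SD, n = 4 libraries) was above that of 98.7% of the 10060 protein-coding genes tested. The classical chains followed at means of 168 ± 45.3 TPM for H2-Aa, 158 ± 29.0 TPM for H2-Ab1 and 110 ± 34.1 TPM for H2-Eb1, and the ranges of these 3 genes over the libraries overlapped. Next came H2-Ob (57.7 ± 43.5 TPM), H2-DMb2 (37.6 ± 12.7 TPM), H2-DMa (15.1 ± 4.60 TPM) and H2-DMb1 (12.04 ± 4.86 TPM), each overlapping its neighbor in the order. Ciita, at 6.93 ± 1.64 TPM, and H2-Oa, at 5.44 ± 5.39 TPM, were the lowest and also overlapped. Only the gaps between Cd74 and H2-Aa and between H2-DMb1 and Ciita were free of overlap between neighbors. Summed, the 10 genes took 0.134% (Tom-) and 0.095% (Tom+) of TPM in tumor #1, and 0.144% and 0.122% in tumor #2, and Cd74 made up between 49.4% and 57.7% of that sum.

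**Figure D1:**
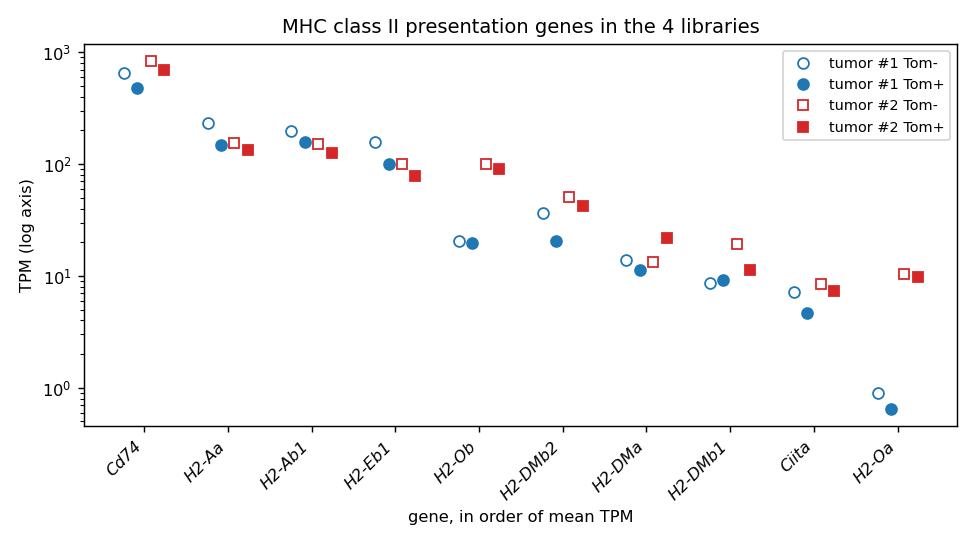
TPM (log axis) of the 10 MHC class II presentation genes in each library, in order of their mean. Open symbols are Tom- and filled symbols Tom+ cells, circles tumor #1 and squares tumor #2, and each symbol is 1 library. H2-Ob and H2-Oa are the genes in which the tumors lie farthest apart, at 19.9 to 20.5 against 90.8 to 99.6 TPM for H2-Ob and at 0.647 to 0.900 against 9.83 to 10.4 TPM for H2-Oa.

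The labelled cell type was checked against 8 B cell markers, which were all expressed in each library, with Cd79a between 120 and 346 TPM. Dendritic cells and macrophages, which also make class II molecules, were represented by 18 markers, of which 7 were at 0 in all 4 libraries, among them Itgax, C1qa, C1qb and Cd14. These 18 markers summed to 2.81 TPM (Tom-) and 4.99 TPM (Tom+) in tumor #1 and to 10.7 and 11.98 TPM in tumor #2, and Cd68 was the highest, at 1.92 to 6.41 TPM. The 6 T cell markers summed to between 1.17 and 8.27 TPM.

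The first comparison asked whether AID-experienced (Tom+) cells differ from Tom- cells of the same tumor in class II transcripts. Of the 10 genes, 8 had a lower TPM in the Tom+ than in the Tom- library of each tumor. The remaining 2, H2-DMa and H2-DMb1, went in opposite directions in the tumors. Among the 11339 genes that 2 or more libraries held at 1 TPM or above, 29.5% were lower in Tom+ cells of both tumors. The median difference of the 10 genes on the log2(TPM + 1) scale was -0.34, with -0.39 in tumor #1 and -0.23 in tumor #2, beside a median of -0.033 over all genes tested. All 10 genes passed the filter, H2-Oa only through tumor #2. In a limma fit blocked on the tumor, 0 of the 10 genes had an adjusted p-value below 0.05, as for 0 of all 11339 genes (0%), and the smallest adjusted p-value over all genes was 0.936. With an unadjusted p-value below 0.05 there was 1 gene of the 10, H2-Eb1, beside 2.64% of all genes that were lower in Tom+ cells at that threshold (299 genes, among 530 in either direction). With immunoglobulin genes left out, H2-Eb1 was no longer below that threshold (unadjusted p = 0.0511, adjusted p = 0.949 from limma). With 1 residual degree of freedom per gene the design has little power, and permuting 2 pairs exactly allows no two-sided p-value under 0.5.

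The chains of the classical class II molecules had lower values in the Tom+ cells of each tumor. For H2-Eb1, the β chain of I-E, tumor #1 had 158 TPM (Tom-) against 101 TPM (Tom+) and tumor #2 100 against 78.6 TPM, a log2 fold change of -0.50 (SE 0.15, unadjusted p = 0.0411, adjusted p = 0.936 from limma). The value of Tom+ cells of tumor #1 was level with that of Tom- cells of tumor #2, so the groups overlapped and the difference was visible only within each tumor. H2-Aa, the α chain of I-A, had 235 against 148 TPM in tumor #1 and 155 against 134 TPM in tumor #2, which gave -0.66 and -0.21 on the log2 scale (fitted -0.44, SE 0.18, adjusted p = 0.936). Its partner H2-Ab1 went from 196 TPM (Tom-) to 159 TPM (Tom+) in tumor #1, and in tumor #2 from 152 to 126 TPM, with nearly the same log2 difference in both (-0.30 and -0.27, fitted -0.28, SE 0.12, adjusted p = 0.936). The ratio of H2-Aa to H2-Ab1 within a library stayed between 0.927 and 1.20.

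Cd74, which encodes the invariant chain, differed by -0.47 in tumor #1 and -0.25 in tumor #2 on the log2 scale (fitted -0.36, SE 0.13, adjusted p = 0.936). Ciita, the coactivator, had 7.17 TPM (Tom-) against 4.64 TPM (Tom+) in tumor #1 and 8.54 against 7.38 TPM in tumor #2 (fitted -0.36 on the log2 scale, SE 0.22, adjusted p = 0.936). For these genes too, Tom- cells were the higher library of each tumor, by a larger margin in tumor #1 than in tumor #2.

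Within H2-DM the subunits differed. H2-DMa, the α chain, had 14.0 TPM (Tom-) against 11.4 TPM (Tom+) in tumor #1 but 13.2 against 21.8 TPM in tumor #2, so its value was lower in Tom+ cells of the former (-0.28) and higher in those of the latter (0.68; fitted 0.20, SE 0.32, adjusted p = 0.954). Its annotated span overlaps Brd2 on the opposite strand and other transcripts, and whether the libraries kept strand was not given in the sources used here, so reads from these genes may not be told apart. The annotated spans of H2-Eb1, Ciita and H2-Oa also overlap a gene on the opposite strand (Gm20513, Dexi and BC051537), so the same may hold for them. The β chain of H2-DM is encoded by a pair of similar genes. H2-DMb2 had 36.9 against 20.5 TPM in tumor #1 and 50.8 against 42.1 TPM in tumor #2, the largest log2 fold change of the 10 genes (-0.54, SE 0.21, adjusted p = 0.936), whereas H2-DMb1 had 8.60 against 9.16 TPM in tumor #1 and 19.1 against 11.3 TPM in tumor #2 (0.082 and -0.71). Of the distinct 60-base windows of the H2-DMb1 transcripts, a length equal to the reads, 19.5% also occur in H2-DMb2, so the division of reads between these genes is uncertain. Their summed level was 45.5 against 29.7 TPM in tumor #1 and 69.9 against 53.4 TPM in tumor #2, lower in Tom+ cells of both (log2 fold change -0.49, SE 0.15, unadjusted p = 0.0429, adjusted p = 0.936 from limma).

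The subunits of H2-O had the fitted values closest to 0 of the 10 genes on the log2(TPM + 1) scale. H2-Ob had 20.5 against 19.9 TPM in tumor #1 and 99.6 against 90.8 TPM in tumor #2 (fitted -0.087 on the log2 scale, SE 0.14, adjusted p = 0.954), and H2-Oa had 0.900 against 0.647 TPM in tumor #1 and 10.4 against 9.83 TPM in tumor #2 (-0.14, SE 0.22, adjusted p = 0.954). Their Tom- libraries were the higher ones in both tumors. For H2-Oa, which lay below 1 TPM in tumor #1, the size depended on the pseudocount. Its difference in tumor #1 was -0.21 with a pseudocount of 1 and -0.42 with 0.1 (fitted -0.25), and its linear ratio of Tom+ to Tom- cells there, 0.719, was close to the 0.721 of Cd74.

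**Figure D2:**
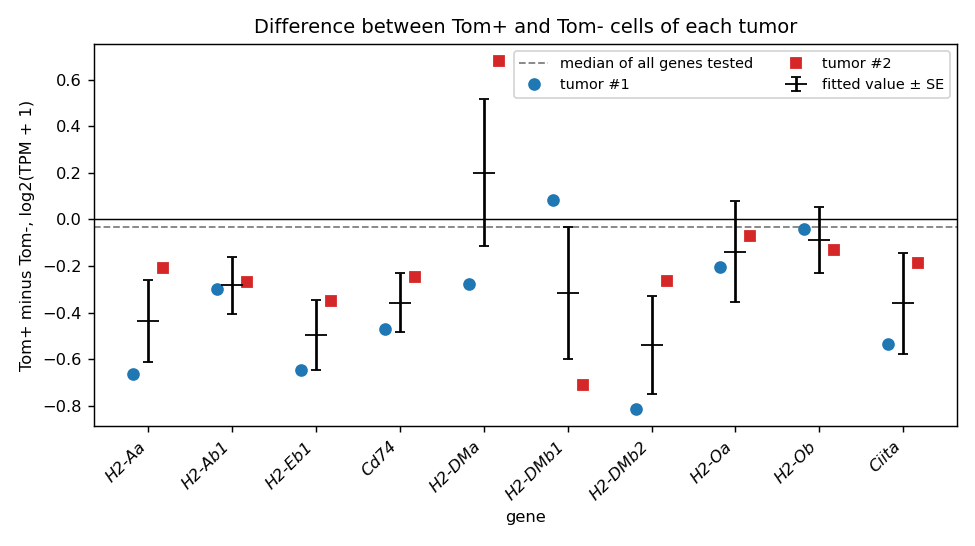
Difference between Tom+ and Tom- cells on the log2(TPM + 1) scale for each gene, in tumor #1 (circles) and tumor #2 (squares), with the fitted value and its SE (black). The dashed line is the median of all genes tested, -0.033. Both tumors lie below 0 for 8 of the 10 genes, and H2-DMa and H2-DMb1 have 1 tumor on each side.

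Other measures also differed between Tom+ and Tom- cells, some in the same direction in both tumors and some not. Of the 8 B cell markers, 6 were also lower in Tom+ cells of both tumors, beside 29.5% of all genes tested. Their median log2 fold change was -0.24 over all 8 markers. Mitochondrial genes took 6.61% (Tom-) and 8.67% (Tom+) of TPM in tumor #1, and 14.4% and 15.6% in tumor #2. The 7 plasma cell markers summed to 176 TPM (Tom-) and 179 TPM (Tom+) in tumor #1, and to 129 and 341 TPM in tumor #2. Nearly all of the rise in tumor #2 lay in Jchain, the joining chain of secreted antibodies, at 1.24 and 208.7 TPM. In that tumor Mzb1 had 94.8 and 80.6 TPM, Irf4 14.6 and 29.4 TPM and Xbp1 18.7 and 21.2 TPM. Immunoglobulin genes took 6.28% (Tom-) and 5.70% (Tom+) of TPM in tumor #1, and 5.35% and 9.76% in tumor #2. The part of these measures in the class II values was not tested. The markers of dendritic cells and macrophages were not lower in sum in Tom+ cells of either tumor, but that sum rested largely on Cd68. Cd68 had 1.92 TPM (Tom-) and 4.11 TPM (Tom+) in tumor #1, and 4.58 and 6.41 TPM in tumor #2. Other markers went both ways in tumor #2. Itgam had 1.78 and 0.208 TPM and Lyz2 1.41 and 0.310 TPM, whereas Flt3 had 0.532 and 1.94 TPM and Ccr2 1.83 and 2.36 TPM. The part of these markers in the class II values was not tested either. In sorted bulk samples, fewer cells with a transcript and less of it per cell cannot be told apart.

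The second comparison set the tumors side by side. With 1 mouse per tumor it is a description of these 2 mice, with no test, and a gene was counted as different where tumors #1 and #2 differed by at least 2-fold on the log2(TPM + 1) scale, in the same direction, in both Tom- and Tom+ cells. H2-Oa and H2-Ob were the 2 of the 10 genes past this limit, both higher in tumor #2, where 11.8% of all genes tested were past it in that direction. In the direction of lower values in tumor #2 there was 0 of the 10, beside 3.1% of all genes. H2-Oa was among the genes tested only through its values in tumor #2, so a difference in this direction was built into its selection. H2-Ob differed by 2.23 in Tom- and 2.14 in Tom+ cells, and H2-Oa by 2.58 and 2.72, on the log2 scale. The Tom- and Tom+ libraries of a tumor were thus close to each other and far from those of the other tumor for both subunits. Under trimmed-mean scaling the differences were 1.87 and 1.82 for H2-Ob and 2.33 and 2.51 for H2-Oa.

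The classical chains went the other way. H2-Aa was lower in tumor #2 by -0.59 in Tom- and -0.14 in Tom+ cells, H2-Ab1 by -0.37 and -0.34, and H2-Eb1 by -0.65 and -0.35, beside a median of 0.20 over all genes tested. That median shifted to -0.10 with trimmed-mean scaling and to -0.078 with quantile normalization. The differences of the 3 chains stayed negative in both fractions under each of these scalings and without immunoglobulin genes, but their size did not hold. With trimmed-mean scaling they were -0.96 and -0.46 for H2-Aa, -0.73 and -0.66 for H2-Ab1 and -1.01 and -0.68 for H2-Eb1, in Tom- and Tom+ cells. Without immunoglobulin genes the value of H2-Aa in Tom+ cells was -0.073. Cd74 was higher in tumor #2 by 0.33 and 0.56, but with trimmed-mean scaling its difference in Tom- cells was -0.033. Ciita, higher by 0.22 and 0.57, changed sign in Tom- cells under trimmed-mean scaling (-0.099) and quantile normalization (-0.16). H2-DMb2 was higher in tumor #2 under each scaling, H2-DMb1 turned to -0.022 with trimmed-mean scaling and to -0.049 with quantile normalization in Tom+ cells, and H2-DMa had opposite signs in the fractions (-0.074 in Tom- and 0.88 in Tom+ cells).

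**Figure D3:**
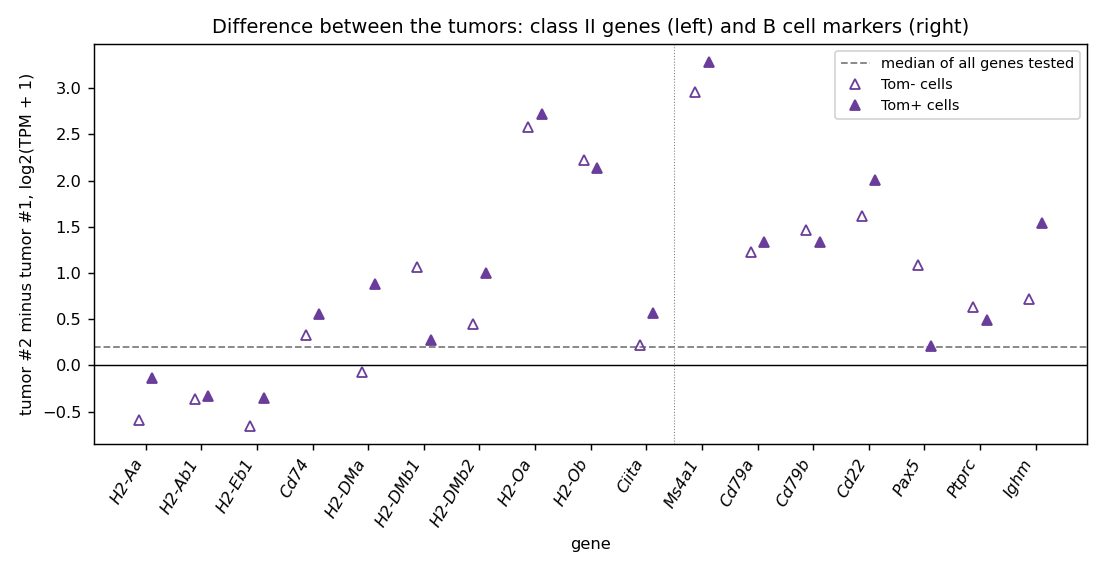
Difference between tumor #2 and tumor #1 on the log2(TPM + 1) scale in Tom- (open) and Tom+ (filled) cells, for the 10 class II genes on the left and 7 of the 8 B cell markers on the right. The dashed line is the median of all genes tested, 0.20. H2-Aa, H2-Ab1 and H2-Eb1 lie below 0 in both fractions, while H2-Oa and H2-Ob lie above 2, as does Ms4a1 among the markers.

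The B cell markers were all higher in tumor #2, in both fractions, with a median difference of 1.21 on TPM without further scaling, the only setting computed for them. The smallest difference, 0.21 for Pax5 in Tom+ cells, was level with the median of 0.20 over all genes tested. The share of all genes that were higher in tumor #2 in both fractions was not counted. Past the 2-fold limit in that direction were 4 of the 8 markers, beside 11.8% of all genes. Among the B cell markers, Ms4a1, which encodes CD20, had 32.9 TPM (Tom-) against 20.5 TPM (Tom+) in tumor #1 and 263 against 209 TPM in tumor #2. H2-Oa and H2-Ob thus differed between the tumors in the direction of the B cell markers and the classical chains in the opposite one. Other measures also set the tumors apart. Mitochondrial genes took 6.61% (Tom-) and 8.67% (Tom+) of TPM in tumor #1, and 14.4% and 15.6% in tumor #2. The markers of dendritic cells and macrophages summed to 2.81 and 4.99 TPM against 10.7 and 11.98 TPM. Hbb-bs, an erythroid gene, had 18.8 and 16.05 TPM against 0 and 0.699 TPM. The part of the B cell markers and of these measures in the class II values was not tested.

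Ratios within a library do not change when a library is scaled by a single factor, though quantile normalization can change them. They were chosen after the values had been seen and carry no test. The summed TPM of the H2-O genes was 0.360 (Tom-) and 0.50 (Tom+) times that of the H2-DM genes in tumor #1, and 1.32 and 1.34 times in tumor #2. In this sum, of which H2-Ob made up most for H2-O, the H2-O transcripts were the lower in tumor #1 and the higher in tumor #2. For the α chains alone, H2-Oa stayed below H2-DMa in each library, with a ratio of 0.0643 and 0.0569 in tumor #1 and 0.784 and 0.451 in tumor #2. For the β chains, the ratio of H2-Ob to the sum of H2-DMb1 and H2-DMb2 was 0.451 and 0.670 in tumor #1 and 1.43 and 1.70 in tumor #2. Within H2-O, H2-Ob exceeded H2-Oa by 22.8 and 30.7 times in tumor #1 and by 9.59 and 9.24 times in tumor #2. Cd74 was 1.12 and 1.17 times the sum of H2-Aa, H2-Ab1 and H2-Eb1 in tumor #1 and 2.04 and 2.07 times in tumor #2. In each of these ratios both libraries of a tumor lay on the same side of both libraries of the other. H2-Oa lay below 1 TPM in tumor #1 and was tested only through tumor #2, so a difference in its ratios was built into its selection. The ratio of H2-Eb1 to H2-Ab1 overlapped between the tumors (0.807 and 0.633 against 0.661 and 0.624). That of H2-DMb2 to H2-DMb1 overlapped as well (4.29 and 2.24 against 2.66 and 3.73).

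**Figure D4:**
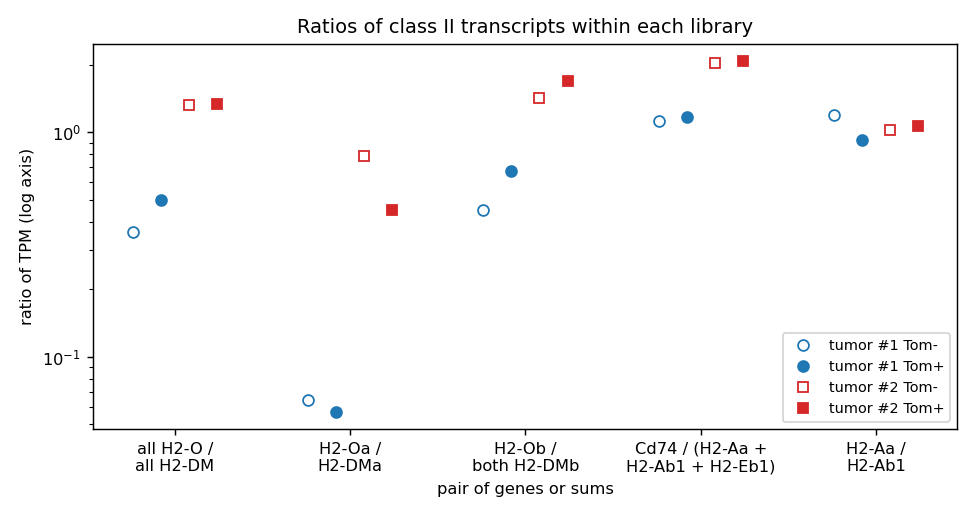
Ratios of TPM within each library (log axis), with symbols as in the plot of levels. The ratio of H2-O to H2-DM transcripts lies between 0.360 and 0.50 in tumor #1 and at 1.32 and 1.34 in tumor #2, and the ratio of Cd74 to the classical chains at 1.12 to 1.17 against 2.04 to 2.07, while the ratio of H2-Aa to H2-Ab1 overlaps between the tumors.

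The remaining genes of the pathway were followed in 4 lists. Of all genes tested, 29.5% were lower in Tom+ cells of both tumors. At an unadjusted p-value below 0.05 from limma, 2.64% of all genes were lower in Tom+ cells. The share of all genes that were higher in both tumors was not counted. For transcriptional control, 10 of 11 genes were tested, with a median log2 fold change between Tom+ and Tom- cells of -0.0037, 4 higher and 3 lower in both tumors. The 1 gene with an unadjusted p-value below 0.05 was Irf8, a transcription factor of B cells and myeloid cells, with 25.2 against 18.9 TPM in tumor #1 and 71.6 against 45.5 TPM in tumor #2 (fitted -0.52 on the log2 scale, SE 0.16, adjusted p = 0.936). This call was lost without the tumor block, with quantile normalization and without a variance trend. Irf4, a factor of activated B cells and plasma cells, had the largest value (0.57, SE 0.27), followed by Nfyb, a subunit of the Y box factor NF-Y (0.56, SE 0.20), both with an adjusted p-value of 0.936. Prdm1, which encodes the repressor Blimp-1, was below the filter, at no more than 0.570 TPM in any library.

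For the processing of the invariant chain and of antigens, 9 of 10 genes were tested, with a median of -0.23. In Tom+ cells of both tumors 6 were lower, beside 29.5% of all genes, and 0 higher. The genes with the largest values were the cathepsin Ctsl (-0.44, SE 0.24), at no more than 2.68 TPM, and the cathepsin inhibitor Cst3 (-0.38, SE 0.24), and 0 of the 9 had an unadjusted p-value below 0.05. Ifi30 had no entry matched by symbol and was not analysed here. Ctss, the cathepsin best known for trimming the invariant chain in B cells, differed little within a tumor, at 54.8 against 52.3 TPM in tumor #1 and 98.9 against 97.8 TPM in tumor #2.

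Turnover and endosomal traffic were covered by 9 genes, of which 7 were tested, with a median of -0.064 and 0 genes with an unadjusted p-value below 0.05. Cd82, a tetraspanin, had the largest value (-0.57, SE 0.32, adjusted p = 0.936), followed by March8, a ubiquitin ligase (0.19, SE 0.27, adjusted p = 0.952). Cd83, at no more than 1.04 TPM, and Cd63, at no more than 0.523 TPM, were below the filter.

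Among 8 other genes of the class II region of chromosome 17, 7 were tested, with a median of -0.16. In Tom+ cells of both tumors 4 were lower, beside 29.5% of all genes, and 0 higher. The median of the list was -0.033 in tumor #1 and -0.29 in tumor #2. Tap2, a subunit of the peptide transporter that serves class I molecules, had an unadjusted p-value below 0.05 (46.6 against 32.9 TPM in tumor #1, 79.8 against 45.5 TPM in tumor #2, fitted -0.64 on the log2 scale, SE 0.16, adjusted p = 0.936). This call was lost without the tumor block. H2-Eb2, a further β chain gene, had -0.29 (SE 0.20, adjusted p = 0.936). H2-Ea-ps, the α chain partner of H2-Eb1, which is annotated as a polymorphic pseudogene, was listed at 0 in 3 libraries and at 0.155 TPM in Tom+ cells of tumor #1, beside H2-Eb1 at 78.6 to 158 TPM.

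Between the tumors, the genes past the 2-fold limit and higher in tumor #2 were 2 of 10 tested for transcriptional control, 2 of 9 for processing, 1 of 7 for turnover and traffic and 1 of 7 for other region genes, beside 11.8% of all genes. In the lower direction there was 1 gene each for processing and for turnover and traffic, beside 3.1% of all genes. These 8 genes are given here, and they were picked by this limit after their values had been seen. March1, the membrane ubiquitin ligase that removes class II molecules from the surface of B cells, was at 0.217 TPM (Tom-) against 0.173 TPM (Tom+) in tumor #1 and at 10 against 8.04 TPM in tumor #2. March8, a related ligase, went the other way, with 6.33 against 9.25 TPM in tumor #1 and 0.781 against 0.657 TPM in tumor #2. March1 passed the filter only through tumor #2 and March8 only through tumor #1, so that a difference in these directions was built into their selection. Ctsh, a cathepsin, had 22.2 against 15.1 TPM in tumor #1 and 99.1 against 95.5 TPM in tumor #2. Ctsz, another cathepsin, differed by 1.17 in Tom- and 1.41 in Tom+ cells, and Ctsl, which passed the filter only through tumor #1, by -1.13 and -1.25. Irf8 differed by 1.47 and 1.22. Of the factors that bind the X box, Rfx5 was past the limit, with 7.38 against 7.87 TPM in tumor #1 and 16.4 against 22.5 TPM in tumor #2. H2-Eb2 was also past it, at 3.43 and 2.70 TPM against 8.92 and 6.93 TPM, in the direction opposite to H2-Eb1.

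**Figure D5:**
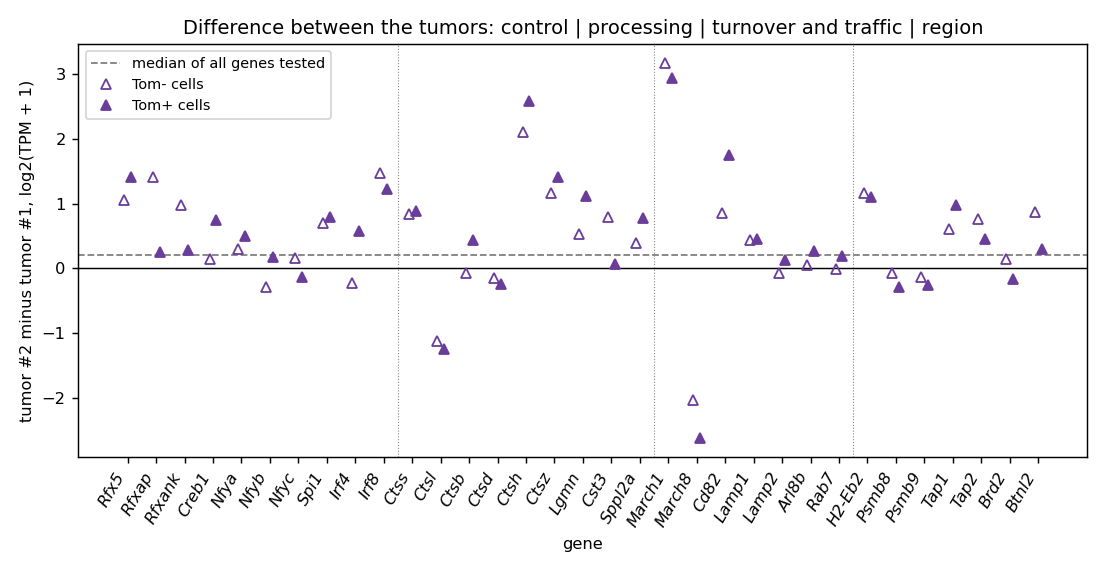
Difference between tumor #2 and tumor #1 on the log2(TPM + 1) scale in Tom- (open) and Tom+ (filled) cells, for the tested genes of the lists of transcriptional control, processing, turnover and traffic, and other genes of the class II region, from left to right between dotted lines. The dashed line is the median of all genes tested, 0.20. March1 has the highest and March8 the lowest values.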

How the data were processed

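RNA of B220+ IgM+ Tom- and Tom+ splenocytes of 2 mice was sequenced as 60-base single reads. The authors removed adaptors (Cutadapt), ran Salmon against GRCm38 transcripts and deposited TPM per gene, each library summing to 1000000 TPM. The submitters' processing notes name CASAVA 1.8 and Salmon 1.9. Gene names and positions came from GENCODE M21 on GRCm38, which matched 34582 of 34866 identifiers. Values were analyzed as log2(TPM + 1), which understates changes of low genes, for the 11339 genes that 2 or more libraries held at 1 TPM or above. Tom+ and Tom- cells were compared with limma 3.58.1 (R 4.3.3), two-sided, with the tumor as a block, because the labels name the tumor of each library and the methods state that each tumor is 1 mouse (deviations from the group means correlated across genes, r = 0.626). A variance trend was used, with 2.21 prior degrees of freedom, and p-values were adjusted over all genes by the Benjamini-Hochberg method with a threshold of 0.05. The authors' edgeR test needs counts and was not run. With it, the paper reports differentially expressed genes between Tom+ and Tom- cells at an adjusted p-value below 0.05. The limma fit on TPM called 0 genes, so its outcome differs from the published calls. The fit was also run on simulated data with Gaussian error and changes larger than those of any member. That run does not measure recovery at the sizes seen here. Promoters came from RefSeq (GRCm38.p6). Python 3.11.15, pandas 2.3.3, numpy 2.4.6 and matplotlib 3.10.9 were used.

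The members and lists were chosen with earlier results of these data known. Besides the 10 members, the text names from each list the genes with an unadjusted p-value below 0.05, the 2 with the largest absolute log2 fold change and those below the filter. The genes of these lists named in the comparison of the tumors, Ctss and the ratios were chosen after their values were seen. Likeness was measured as Euclidean distance between centered log2(TPM + 1) profiles. Alternatives were a fit without the block or without the variance trend, a pseudocount of 0.1 or 0.5, keeping every gene or those averaging 5 TPM or more, scaling by trimmed means or by quantiles, leaving out immunoglobulin genes, each tumor left out, and H2-DMb1 and H2-DMb2 summed. The values of 1 B cell marker are not reported here, although it counts in the summaries over that list.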

Additional observations from a re-analysis of the deposited data

Results flagged for a closer look

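H2-DMa and H2-DMb1 moved in opposite directions between Tom+ and Tom- cells of the 2 tumors, and the difference between the tumors was not tested, since each has a single pair of libraries. For H2-DMa the log2 difference was -0.28 in tumor #1 and 0.68 in tumor #2, a gap of 0.957. For H2-DMb1 it was 0.082 and -0.71, a gap of -0.794, and the sum of H2-DMb1 and H2-DMb2 had negative differences in each tumor (-0.60 and -0.38).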

How the results depend on the processing

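Under each alternative that gave a test, 0 genes had an adjusted p-value below 0.05 from limma, and the smallest adjusted p-value lay between 0.643 (trimmed-mean scaling) and 1 (no replicate block). Without the replicate block the genes with an unadjusted p-value below 0.05 went from 530 to 140, and those in the lists of transcriptional control and of other class II region genes from 1 to 0 in each. The former list also had 0 with quantile normalization and without a variance trend. The same 8 members were lower in Tom+ cells of both tumors under each setting with both tumors and separate H2-DMb genes. The unadjusted p-value of H2-Eb1 was 0.0511 with immunoglobulin genes left out. The median of the transcriptional control list, -0.0037, was 0.060 without a filter and with a mean TPM of at least 5, 0.00099 with trimmed-mean scaling, 0.020 with quantile normalization and 0.025 without immunoglobulin genes. That of the turnover list was -0.037 with quantile normalization, and the members' median difference between the tumors, 0.42, was 0.099 with trimmed-mean scaling. With 1 tumor left out, which allows no test, the median of the members lay between -0.39 and -0.23 and 9 were lower, H2-DMa lay between -0.28 and 0.68, H2-DMb1 between -0.71 and 0.082, the control list between -0.074 and 0.13, the processing list between -0.27 and -0.033 and the other region genes between -0.29 and -0.033. The cause of these changes was not tested. Since TPM keeps no depth, the precision of values near or below 1 TPM, such as those of H2-Oa in tumor #1, is unknown.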

Other observations

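The protein-coding genes whose profile over the 4 libraries was closest to the mean centered profile of H2-Aa, H2-Ab1, H2-Eb1 and Cd74 were Fam107b, Usp12, Camk2a, Golt1b and Tmem229b, at Euclidean distances of 0.0301 to 0.0859, where the median over 10017 genes was 0.786. Among the 4 genes that formed the profile, Cd74 was the farthest from it, at 0.639, and H2-Aa the closest, at 0.203. Fam107b had 557 TPM (Tom-) against 392 TPM (Tom+) in tumor #1 and 457 against 380 TPM in tumor #2. Camk2a lay near the filter, with 1.695 against 0.937 TPM in tumor #1 and 1.25 against 0.818 TPM in tumor #2. It passed only through its Tom- libraries, so lower values in Tom+ cells were built into its selection. With 4 libraries from 2 mice, such closeness describes these libraries only.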
